A study of Homo sapiens with 1 sample.

Results

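The abundant nuclear genes whose read pairs lay on the strand opposite to the gene were described in the negative control of a PAR-CLIP experiment. The control, a library of its own, came from HEK293T cells, an established line of human embryonic kidney origin. They carried an empty SFB vector, which encodes an S-protein-binding, FLAG and streptavidin-binding tag with no protein fused to it. The cells received 0.1 mM 6-thioguanosine overnight and 0.4 J cm-2 of UV light at 365 nm, and RNA was recovered on streptavidin resin and then on Flag resin. The libraries of tagged BRCT domain and tagged BARD1 were not analysed here, and the control has no replicate, so there is no replicate error and conditions were not tested against each other.

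Genes were chosen from the strand columns of the STAR gene counts, joined by identifier to the exon table. A gene was taken when it was not mitochondrial, had over 350 bases of exons, held at least 300 stranded read pairs (same-strand plus opposite-strand pairs) and had under 10% of these pairs in the same-strand column, in which the first read of a pair has the strand of the gene. Genes ending below 15.5, 10, 16.6, 10.9 and 12.7 Mb on chromosomes 13, 14, 15, 21 and 22, which carry the rDNA arrays on their short arms, were left out. Of 63494 listed genes, 48804 were nuclear, long enough and off these arms, 373 of them held at least 300 stranded pairs, and 198 were the opposite-strand genes. The rule used the counts and the strand share, so both are given as descriptions. Under the rule's strand limit, 53.1% of the 373 abundant genes were called, and nothing is read from that share. Among the other abundant genes, 113 had a same-strand share over 90% and 62 lay between these limits.

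In PAR-CLIP, a thiolated nucleoside is built into RNA, which long-wave UV light then crosslinks to bound protein, and the control with the tag alone shows which RNA is recovered with no bait protein. In a stranded library, the orientation of a read pair records which DNA strand the RNA was copied from. With a kit of the type named in the methods, the first read is known to be complementary to the RNA, so that a pair in the opposite-strand column has the orientation of a transcript of the gene itself and a pair in the same-strand column that of RNA from the other strand. The sample labels list a cyclization step that the methods do not mention, and the orientation of this library was not tested. Where exons of only a single gene on each strand overlap, a pair is assigned to both genes when strand is used. The same pair is set aside as ambiguous when strand is not used.

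The library held 33677888 read pairs, of which 4051714 were counted on 1 gene without use of strand. Of 63494 identifiers, 0 were found in the name tables consulted, so the genes are given by position on the T2T CHM13 v1.1 assembly, their function is not described, and the markers of the cell line were not checked. No sequence is printed, because none could be assigned to these genes. Intervals are 95% Wilson intervals, and they cover counting error only, since without molecular identifiers several reads can come from the same molecule.

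The opposite-strand genes were dominated by 1 gene. CHM13_G0059469, from 131349348 to 131421825 on chromosome X (minus strand), held 1934778 pairs in the opposite-strand column and 6638 in the same-strand column. These were 90.1% of the 2154311 pairs of all 198 genes (95% interval 90.08% to 90.16%) and 173 times the pairs of the next gene. Its 7 exons spanned 4144 bases, 5.72% of the gene, and per kilobase of exon its density was 468488 pairs, 65.1 times that of the next densest gene. No exon of a gene on the plus strand overlapped its exons, and its pairs counted without strand equalled its stranded pairs. Counts per gene do not show which exons carried the pairs.

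With this gene, the 198 genes held 67.0% of the stranded pairs of all nuclear genes (95% interval 66.94% to 67.04%). Without it, the other 197 genes held 212895 pairs, 16.7% of the nuclear pairs that were left (95% interval 16.64% to 16.77%), and 32.9% of the opposite-strand pairs that were left. The same-strand share was 0.483% over all 198 genes and 1.77% without the highest gene, because that gene, at 0.342%, made up most of the pairs of the group. A summed count of these genes therefore describes mainly 1 locus, whereas medians over genes hardly moved. The median was 526.0 stranded pairs with the highest gene and 524 without it.

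**Figure D1:**
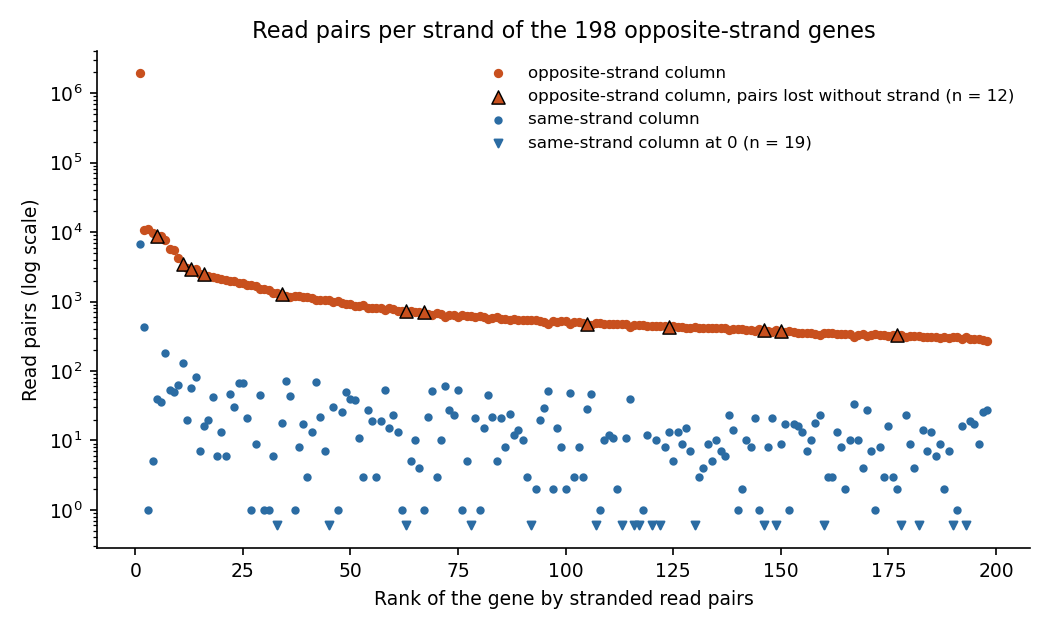
Read pairs in the opposite-strand column (orange) and the same-strand column (blue) of the 198 opposite-strand genes on a log scale, ordered by stranded pairs. The highest gene lies at 1934778 opposite-strand pairs, far above the others, triangles outlined in black mark 12 genes with under 50% of their pairs left when strand was not used, and blue triangles mark 19 genes with 0 same-strand pairs, drawn below 1 because 0 has no place on a log axis.

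Below the highest gene, counts fell off steadily. The next gene, CHM13_G0056219, on the plus strand of chromosome 9 from 88049337 to 88519580, held 10794 opposite-strand and 427 same-strand pairs over 39 exons with 13335 bases. Only 1 further gene passed 10000 stranded pairs, on the plus strand of chromosome 6 from 4357719 to 4364685, with 11134 opposite-strand pairs and 1 same-strand pair. These 2 genes had similar totals but differed in strand purity, with same-strand shares of 3.81% (95% interval 3.47% to 4.18%) and 0.009% (95% interval 0.0016% to 0.0509%). The 9 genes ranked next after the highest held 34.5% of the pairs of the 197 genes. In all, 47 genes held 1000 or more stranded pairs and 151 held 300 to under 1000.

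The other genes of the highest 10 had varied structures. On the minus strand of chromosome 1 from 203136497 to 203138107, a gene with 2 exons and 1371 bases held 9866 opposite-strand and 5 same-strand pairs. On the minus strand of chromosome 9 from 107612621 to 107686696, a gene with 29 exons and 17196 bases held 8870 and 40, although only 57 of its pairs remained when strand was not used. On the plus strand of chromosome 2 from 99152553 to 99153930, a gene with 1 exon of 1378 bases held 8646 and 36. A further gene with 1 exon, of 8829 bases, on the plus strand of chromosome 11 from 65490992 to 65499820, held 7814 and 180.

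Same-strand counts of 100 or more among the highest 10 occurred in the gene on chromosome 11, in the gene on the plus strand of chromosome 9, and above all in the gene on chromosome X. The gene on the minus strand of chromosome 10 from 99128069 to 99148321 held 5748 opposite-strand and 53 same-strand pairs over 16 exons. The gene on the minus strand of chromosome 3 from 87717321 to 87869539 held 5519 and 50 over 6 exons. The tenth gene by rank, on the minus strand of chromosome 6 from 138187753 to 138232961, held 4264 and 62 over 10 exons. Of these 10 genes, 7 had under 1% of pairs in the same-strand column.

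Ranked per kilobase of exon, 6 of the 10 highest genes stayed among the 10 densest. After the gene on chromosome X, the densest were the gene with 2 exons on chromosome 1, at 7199.85 stranded pairs per kilobase, the gene with 1 exon on chromosome 2, at 6300.44, and the gene on chromosome 6 from 4357719, at 3734. The gene ranked next to the highest by count, on chromosome 9 from 88049337, reached 841 pairs per kilobase, and its place by count came with 13335 bases of exons. Over all 198 genes the median density was 103 stranded pairs per kilobase, with quartiles of 57.8 and 197.

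The same-strand share varied among the genes well below the limit that chose them. Its median was 1.80%, with quartiles of 0.445% and 3.39%, and 78 genes had under 1%, 106 under 2% and 171 under 5%. No same-strand pair was counted in 19 genes. The most abundant of these held 1310 opposite-strand pairs. If a count of 0 allows up to 3 pairs, its same-strand share could be up to 0.229%, and over the 19 genes this limit reached 0.984%. The upper Wilson limits of the same 2 genes were higher, at 0.292% and 1.24%. The share that remained was thus not measurable at this depth in some genes and was several percent in others, and 27 genes had 5% or more.

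Values just inside and just outside the limits of the rule were close. The genes just under 10% had 52 of 533 pairs (9.76%) and 33 of 344 (9.59%) in the same-strand column, and the genes just above had 37 of 361 (10.2%) and 56 of 546 (10.3%). The lowest counts inside were 301 and 302 stranded pairs, and the highest below the limit were 298 and 297. The shortest genes inside had 439 and 612 bases of exons. Just under the length limit lay 2 genes of chromosome 14 with 1 exon of the same length each, which held 9323 and 1051 stranded pairs with same-strand shares of 4.93% and 0.761%. In all, 11 genes failed only on length and 6 only because they lie on the short arms that were left out.

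**Figure D2:**
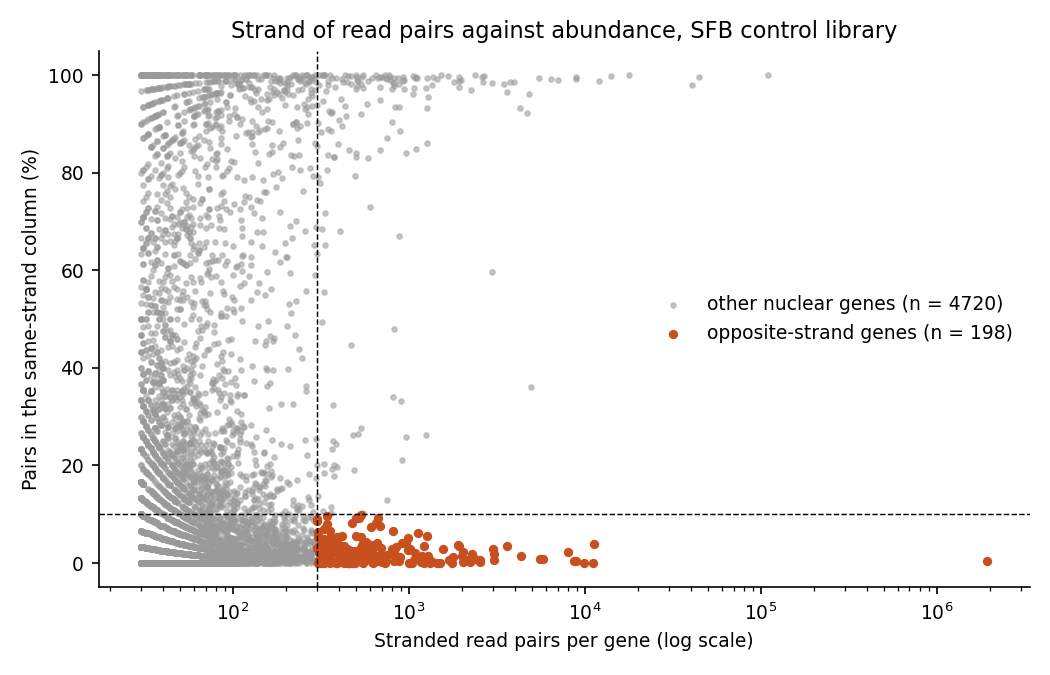
Same-strand share of pairs (percent) against stranded read pairs per gene (log scale) for nuclear genes over 350 bases with 30 or more stranded pairs. The 198 opposite-strand genes (orange) fill the corner under 10% and from 300 pairs, set off by dashed lines, and most other abundant genes (grey) lie near 100%.

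The strand limit was also applied below 300 pairs, as a description of the values that the rule used. Among nuclear genes over 350 bases, 1701 of 3530 with 30 to under 100 stranded pairs had a same-strand share under 10% (48.2%, 95% interval 46.5% to 49.8%), 611 of 1015 with 100 to under 300 (60.2%, 57.2% to 63.2%), 151 of 277 with 300 to under 1000 (54.5%, 48.6% to 60.3%), 34 of 64 with 1000 to under 3000 (53.1%, 41.1% to 64.8%) and 13 of 32 with 3000 or more (40.6%, 25.5% to 57.7%). The last 3 classes together are the 198 and 373 genes given above. Genes with a same-strand share over 90% numbered 284, 132, 69, 26 and 18 in the same classes, 8.05% of the least and 56.2% of the most abundant. From 30 to under 300 pairs, genes under the limit had a median same-strand share of 2.63%, against 1.80% in the 198 abundant genes, but a gene with few pairs can take only coarse values of this share.

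The opposite-strand genes were near other genes with read pairs in exon length and exon number. Overlapping or touching exons of a gene were merged before counting. The median was 12 exons, with quartiles of 7 and 21, and 116 genes (58.6%) had 10 or more, against 60.9% of all 4918 nuclear genes over 350 bases with at least 30 stranded pairs. The median exon length was 5752.5 bases, with quartiles of 3752 and 8784, against medians of 6132 bases and 13 exons in those 4918 genes. Without the highest gene the medians were 12 exons and 5759 bases. The share of 58.6% is close to that background.

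The 113 abundant genes with same-strand pairs had a median of 9 exons and 4720 bases, and 15 of them (13.3%) had 1 exon, against 10 of the 198 opposite-strand genes (5.05%). The background of 1 exon was 4.80% among nuclear genes with at least 30 stranded pairs and 25.7% among all 48804 eligible genes. The 2312 genes with opposite-strand pairs and 30 to under 300 stranded pairs had a median of 12 exons and 5594 bases, and 4.24% of them had 1 exon. The distributions of the groups overlapped over most of their range, and no test of these differences was made.

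**Figure D3:**
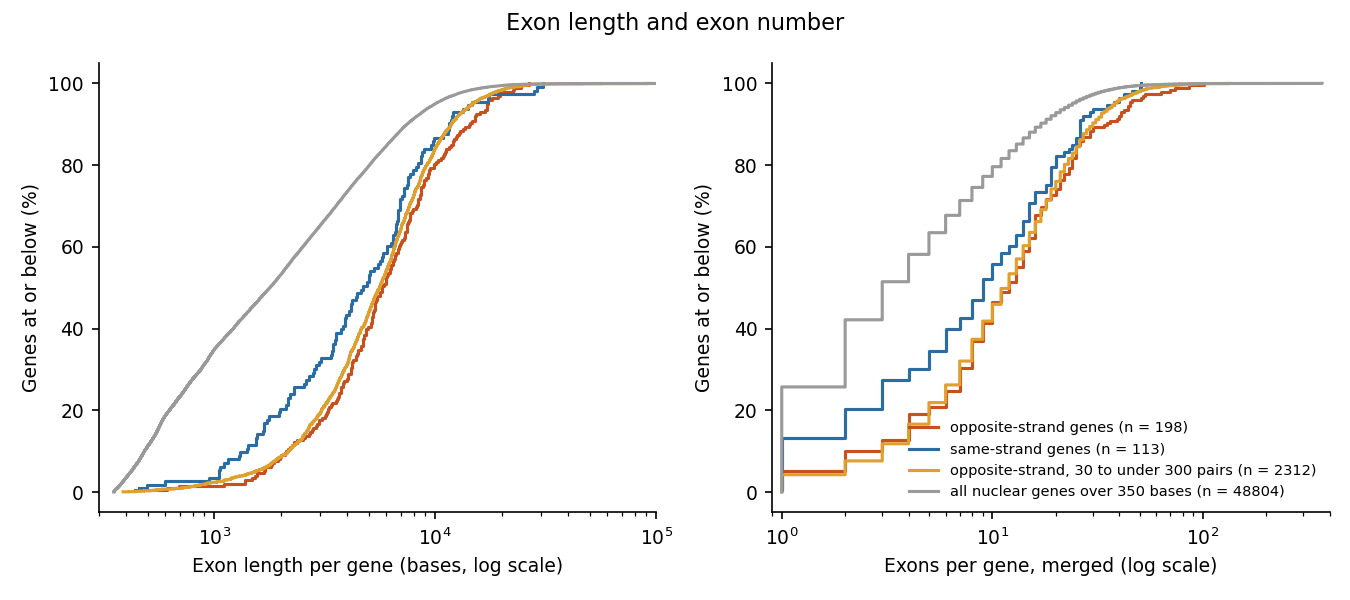
Cumulative share of genes (percent) by exon length in bases (left) and by merged exons per gene (right), both on log scales, for the 198 opposite-strand genes (orange), 113 abundant same-strand genes (blue), 2312 opposite-strand genes of 30 to under 300 pairs (yellow) and 48804 nuclear genes over 350 bases (grey). The orange and yellow lines run together, the blue line lies to their left, and the grey line starts at 25.7% of genes with 1 exon.

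The 10 genes with 1 exon ranged from 439 to 22748 bases and from 322 to 8682 stranded pairs. The longest lay on the plus strand of chromosome 11 from 65416086 to 65438833, with 1527 opposite-strand and 45 same-strand pairs. It is the nearest other opposite-strand gene of the gene with 8829 bases described above, 52158 bases away on the same strand. On the minus strand of chromosome 5 from 136713998 to 136715692, a gene with 1695 bases held 1754 and 21. The shortest lay on the minus strand of chromosome 10 from 10786486 to 10786924, with 322 pairs, all in the opposite-strand column. None of the 10 genes exceeded a same-strand share of 2.86%. Their median share was 0.662%, against 1.85% in the 188 genes with more exons, and their median density was 203 stranded pairs per kilobase against 101. The rule limited the same-strand share in both sets, so nothing is read from the difference in share.

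At the other end, the gene with the most exon bases lay on the plus strand of chromosome 1 from 43260432 to 43324500, with 26462 bases in 63 exons, 2982 opposite-strand pairs and 56 same-strand pairs. The gene with the most exons, 101, lay on the minus strand of chromosome 3 from 48593029 to 48624315 and held 307 and 2. Along classes of exon number, the median density fell from 203 stranded pairs per kilobase with 1 exon to 103 with 10 to 19 exons and 36.2 with 50 or more, while the median same-strand share went from 0.662% to 1.93% and 3.82%. The count minimum bears on the density, since a short gene needs a higher density to reach 300 pairs. The rule also limited the same-strand share in every class, and no genes outside the rule were set beside it. That share rose along classes of exon length too, from 1.06% with 1000 to 1999 bases to 2.49% with 10000 to 19999. The classes of 1 exon and of 50 or more exons hold 10 and 8 genes.

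Counting with and without strand separated a small set of these genes. In the 373 abundant genes, pairs counted without strand had a median of 100% of the stranded pairs and a lower quartile of 99.9%. The lower quartile was 99.1% over the 4918 genes of 30 or more pairs, and 100% in the 198 genes. Near-equal counts were thus common and not particular to the opposite-strand genes. In 149 of the 198 genes the pairs counted without strand equalled the stranded pairs. In 164 (82.8%) they were at least 99% of them. In 22 genes they were 50% to under 99%, and in 12 genes (6.06%) they were under 50%, against 6.89% of nuclear genes with at least 30 stranded pairs and 8.58% of the 373 abundant genes. The 12 genes therefore occurred at a share near the background. All 12 shared exon bases with a gene on the other strand, which follows largely from the counting, since pairs over such exons are lost only without strand. For 3 of them no pair remained when strand was not used, and the featureCounts table, also made without strand, listed 0 reads.

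**Figure D4:**
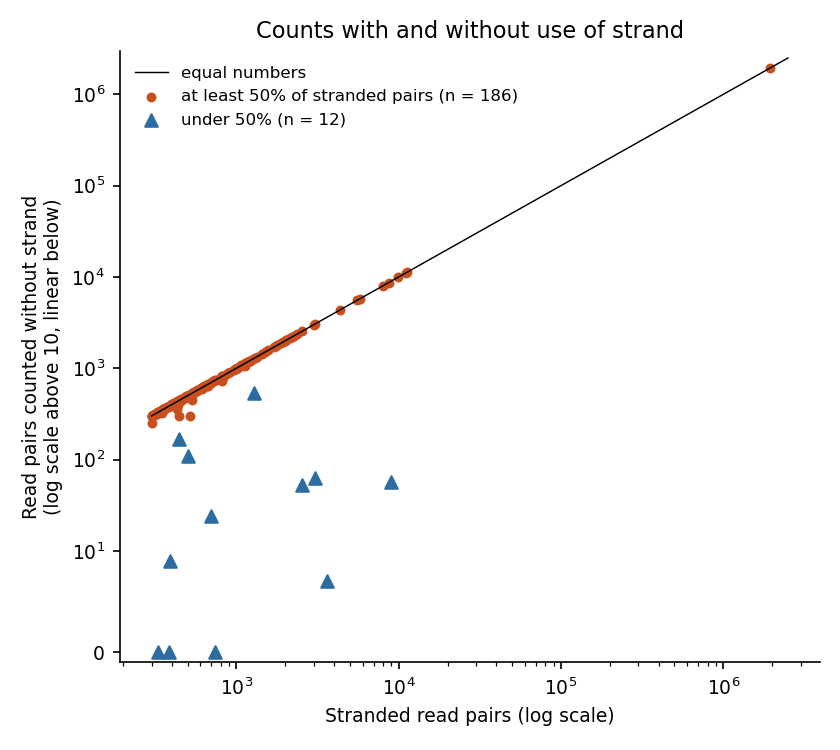
Read pairs counted without strand (log scale above 10, linear below) against stranded read pairs (log scale) for the 198 opposite-strand genes, with a line of equal numbers. Orange points, 186 genes, lie on or near the line, at 57.9% of their stranded pairs or more. Blue triangles, 12 genes, lie below it, at 41.6% or less, 3 of them at 0.

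In 11 of the 12 genes, a gene on the other strand held between 58.9% and 100.3% as many same-strand pairs as the gene held opposite-strand pairs. The gene of 29 exons on the minus strand of chromosome 9, with 8870 opposite-strand pairs, kept 57 pairs without strand. A gene with 1 exon on the plus strand from 107675874 to 107677275, which shared 711 bases with its exons, held 8817 same-strand and 36 opposite-strand pairs and kept 0 without strand. The same-strand pairs of the plus-strand gene were thus 99.4% of the opposite-strand pairs of the minus-strand gene. Since pairs in the shared bases enter the counts of both genes, the 2 counts are largely the same pairs and are not independent.

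A gene on the plus strand of chromosome 1 from 110165448 to 110217172 held 3502 opposite-strand pairs, and 7 pairs in all remained without strand. Its counterpart on the minus strand, which shared 489 exon bases with it, held 3497 same-strand pairs. The gene with the most exon bases, on chromosome 1 from 43260432, kept 62 pairs, and its counterpart held 2926 same-strand pairs. On chromosome 16 from 2111559 to 2115557, a gene with 4 exons held 733 opposite-strand pairs and its counterpart held 733 same-strand pairs, with 0 left in either when strand was not used. Over the 12 genes, the same-strand pairs of the counterpart were a median of 97.9% of the opposite-strand pairs of the gene.

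The exception was a gene on the plus strand of chromosome 5 from 438417 to 466746, with 2513 opposite-strand pairs and 52 pairs left without strand. Its exons overlapped those of 2 genes on the minus strand, and neither held more than 10 same-strand pairs. Together the 12 genes held 22876 stranded pairs, 10.7% of the pairs of the 197 genes below the highest. In 10 of the 12, the counterpart was one of the 113 abundant genes with same-strand pairs, so that largely the same pairs placed a gene in each of these groups.

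Overlap of exons on the other strand was not by itself rare. In 83 of the 198 genes (41.9%) at least 1 exon base was shared with a gene on the other strand, against 45.0% of nuclear genes with at least 30 stranded pairs, 27.5% of all eligible genes and 40.7% of the abundant same-strand genes. In the 71 of these 83 that kept at least 50% of their pairs, the gene on the other strand held a median of 0.643% as many same-strand pairs, and 65 had at most 10%. The shared stretch had a median of 234 bases in these 71 genes and 775 bases in the 12 genes. Of the 115 genes with no shared base, 113 had equal counts with and without strand, which also follows largely from the counting. The median same-strand share, which the rule limited in both sets, was 1.73% in these 115 genes and 1.84% in the 83 genes with shared bases.

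The reads per gene of featureCounts followed the pairs counted without strand. In 172 of the 195 genes with such pairs, the reads were within 1% of 2 per pair, and in 89 of the 198 they were exactly 2 per pair or 0 for 0. The ratio ranged from 1.91 to 2.49. By these reads the 198 genes held 68.2% of the reads of nuclear genes (95% interval 68.17% to 68.24%, too narrow, since both reads of most pairs entered the count).

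The genes were spread over 23 chromosomes, counting the X chromosome, and over both strands, with 100 on the plus and 98 on the minus strand. The plus strand held 50.5% of them, against 50.1% of nuclear genes with at least 30 stranded pairs. Chromosome 1 carried 26 genes (13.1%, against 10.02% of those nuclear genes), chromosome 17 carried 18 (9.09% against 6.57%) and chromosome 11 carried 15 (7.58% against 5.88%). Chromosomes 18 and 20 carried 1 gene each. Of the 373 abundant genes, 198 (53.1%) were opposite-strand genes under the rule's own strand limit. By chromosome, the highest shares were all 4 on chromosome 4 and 6 of 7 on chromosome 21. The lowest were 1 of 8 on chromosome 20 and 3 of 12 on chromosome 8. These are small numbers, and no test of them was made.

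**Figure D5:**
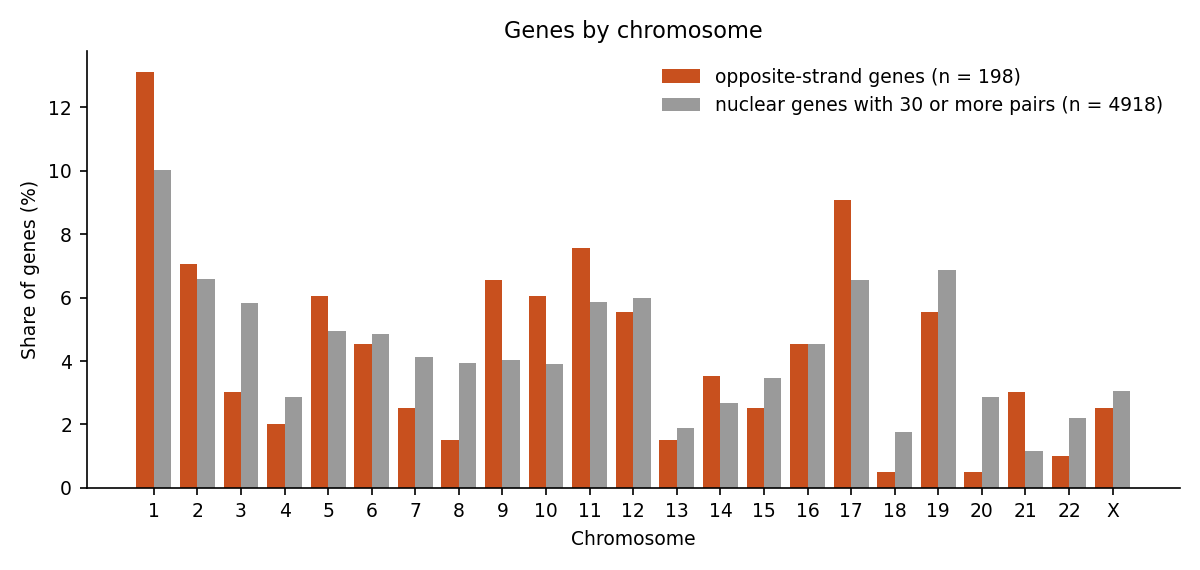
Share of genes (percent) by chromosome for the 198 opposite-strand genes (orange bars) and the 4918 nuclear genes over 350 bases with 30 or more stranded pairs (grey bars). Chromosome 1 is highest in both, with 13.1% and 10.02%, and the X chromosome holds 2.53% of the opposite-strand genes.

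By pairs, the chromosomes stood in another order. The X chromosome, with 5 genes, held 90.2% of the pairs of the 198 genes and 0.880% without the highest gene. Without that gene, chromosome 1 held 15.2% of the pairs, chromosome 9 held 11.8%, chromosome 2 held 9.94% and chromosome 6 held 9.93%. On chromosome 9 the genes from 88049337 and from 107612621 were among the highest 10, and the latter is one of the 12 genes whose pairs a counterpart shared.

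The median distance to the next opposite-strand gene on the chromosome was 3292 kilobases, 16 genes had another within 100 kilobases, and 2 genes overlapped. No background of other genes was set beside these distances, so they are not read as close or far. The overlapping genes lay on chromosome 13, from 109377772 to 109536621 on the minus strand and from 109535276 to 109743647 on the plus strand, with 448 and 667 stranded pairs. An abundant same-strand gene lay within 10 kilobases of 12 of the 198 genes (6.06%), against 0.976% of nuclear genes with at least 30 stranded pairs. In 10 of these 12 it was the overlapping counterpart described above, which holds largely the same pairs, so nothing is read from the difference in share. Only 2 genes had a separate neighbour at this distance.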

How the data were processed

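Cleaned reads were aligned by the authors with STAR (2.7.6a in the submitters' processing notes) to the T2T CHM13 v1.1 assembly. They deposited raw counts of read pairs on each gene, with strand ignored and by strand, and raw featureCounts counts of reads over exons (version 2.0.2, no strand, CHM13 draft v1.1 annotation per the file headers) with exon length. Replicates were not pooled, since there was 1 library. The rDNA bin table and 0 sample columns were set aside.

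From these tables, genes were joined by identifier, overlapping or touching exons were merged, shares received 95% Wilson intervals, and exons were compared with those of all genes on the other strand, with an overlap of at least 1 base. A count of 0 was taken to allow up to 3 pairs. Stranded pairs are the sum of both strand columns. The code was tested on simulated data. Tools were pandas 2.3.3, numpy 2.4.6, SciPy 1.17.1 and matplotlib 3.10.9 under Python 3.11.15.

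The genes and comparisons were chosen with earlier results of these data known. Genes described singly were the 10 with most stranded pairs, those with extreme exon length or exon number, the 3 with the largest loss of pairs without strand, and those at the limits of the rule. The genes with 1 exon, the gene on chromosome 16, the exception on chromosome 5 and the overlapping neighbours on chromosome 13 were named after their values were seen. Alternatives were other count, strand and length limits, removal of the highest gene, featureCounts reads and other definitions of overlap.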

Additional observations from a re-analysis of the deposited data

How the results depend on the processing

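No paired analysis was possible because the control is a single library. The 198 genes became 809 with a minimum of 100 stranded pairs and 47 with 1000, and the number on chromosome 1, which held most genes in each of these settings, became 94 and 7 from 26. The share of nuclear stranded pairs, 67.0%, was 70.1% and 64.7% with these minimums, 66.5% and 67.1% with same-strand limits of 5% and 20%, 16.7% without the highest gene, 67.5% with no length minimum and 68.2% by featureCounts reads. The share of the highest gene, 90.1%, was 86.1%, 93.3%, 90.7%, 89.9%, 5.27% (the next gene), 89.4% and 91.1% in the same order. The median exon length, 5752.5 bases, was 5885, 5438, 5609, 5759, 5759 and 5438 in the first 6 of these settings. The median exon number, 12, was 10 with a minimum of 1000 pairs, 11 with the limit of 5% and 11 with no length minimum. The median density, 103 pairs per kilobase, was 34.9, 386, 109 with the limit of 5%, 109 with no length minimum and 96.9 from 50% of the featureCounts reads.

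The share of genes with 1 exon, 5.05%, was 10.05% with no length minimum. The share with an exon overlapped on the other strand, 41.9%, was 60.6% when whole genes were compared. Chosen after seeing the data, removal of the 12 genes with under 50% of pairs left without strand gave 66.3% of nuclear pairs, 91.1% on the highest gene, 12.5 exons and 101 pairs per kilobase, and exon entries as listed, not merged, had a median of 68.5. The other 30 values moved by less than their interval or count limit, or kept their printed value. Counts and densities follow from the limits by construction, and the cause of the other changes was not tested.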
